A study of Homo sapiens with 12 samples.

Results

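The genes described here are 10 imprinted genes, PEG10, SGCE, PLAGL1, MEST, PEG3, H19, MEG3, KCNQ1OT1, SNRPN and NNAT, taken by symbol from a table of 64253 genes, with the row of highest total count kept where a symbol was repeated. They were chosen by name with earlier results of these data known, and PEG10 and PLAGL1 stand at the head of the set because their counts were lower with siNGFR in H460 cells, so their values are given here as a description without a test. The study asked what loss of NGFR, the neurotrophin receptor p75NTR, does to gene expression in these lung cancer cells. Both cell lines come from non-small-cell lung cancer. The paper describes H460 as containing p53 and H1299 as deficient in it. In comparisons of the lines, p53 status cannot be told apart from their other differences. H460 was given siRNA against NGFR (siNGFR) or control siRNA (siCont), and so was H1299, with 3 biological replicates in each of the 4 groups. Ribosomal RNA was removed from the total RNA, which was sequenced on the Ion Torrent platform and counted per gene. Both are established lines, so each line stands for a single tumor's descendants. In such bulk RNA fewer cells with a transcript and less of it per cell cannot be told apart.

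The libraries held 16672164 to 36116823 counts. With 2 to 8 counts of NGFR per group, the depth was too low to see a knockdown, and the siRNA labels stand unchecked by their target. In a principal component of the H1299 libraries that held 68.5% of the variance, siNGFR replicate 3 lay at -21.2, near the siCont libraries (-53.1 to -24.3) and apart from siNGFR replicates 1 and 2 (60.7 and 74.8), so H1299 responses are also given without it. The share of counts that fell on short genes (exons under 400 bases in all) was 50.5% to 55.6% in H460 siNGFR against 43.1% to 48.2% in H460 siCont, and 41.7% to 50.6% in H1299 siNGFR against 48.7% to 53.7% in H1299 siCont. The summed level of 8 leukocyte markers was 10.6 to 14.1 CPM (counts scaled to a common library size after TMM normalization) in H460 siNGFR and 16.2 to 22.3 CPM in H460 siCont. It came mostly from CD14 and CD68, whereas PTPRC, which defines leukocytes, averaged 0.0144 CPM in H460 siNGFR and was at 0 in H460 siCont. Of the epithelial markers, KRT8, KRT18 and KRT19 were abundant in H460 siCont (664, 258 and 160 CPM). In H1299 siCont KRT8 and KRT18 were abundant (226 and 238 CPM), while KRT19 averaged 0.0385 CPM. EPCAM averaged at most 0.162 CPM and CDH1 at most 0.0372 CPM in any group. The mesenchymal marker VIM averaged 558 CPM in H460 siCont and 1873 CPM in H1299 siCont.

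Imprinted genes are expressed from a single parental copy, because a DNA methylation mark set in the egg or the sperm silences the other. They lie in clusters that share such a marked control region, so neighbouring genes often switch together, and many act in growth of the fetus and placenta. All of these genes but H19 and MEG3 are active on the paternal copy. Reads per gene do not tell the parental copies apart, so allele use was not measured here. In the GENCODE annotation of GRCh38, PEG10 runs on the plus strand of chromosome 7 from 94656325 to 94669695, and SGCE lies head to head with it on the minus strand from 94524204 to 94656572, with 248 bases of overlap at their starts. PLAGL1 covers chromosome 6 from 143940300 to 144064599 on the minus strand and holds HYMAI, a noncoding gene of the same strand. MEST covers chromosome 7 from 130486171 to 130506465, SNRPN chromosome 15 from 24823637 to 24978723 and NNAT chromosome 20 from 37521206 to 37523693, each on the plus strand, and KCNQ1OT1 runs antisense within KCNQ1 on chromosome 11 from 2608328 to 2699994. How strand entered the counts is not stated, so reads from the overlap of PEG10 with SGCE, of KCNQ1OT1 with KCNQ1 and of NNAT with BLCAP, in whose intron it lies, may not be separated.

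Sequences of start regions show what the marked promoters of this class look like. RefSeq windows of 300 bases (250 before to 50 after a start, GRCh38.p14) were found for 5 of the 10 genes, PLAGL1, MEST, H19, MEG3 and SNRPN, with 18 windows in all. The windows below are those of the members whose levels the results turn on, and the capitals mark TGCCGC or, on the other strand, GCGGCA, the letters that the zinc finger protein ZFP57 binds when methylated to keep imprints in the embryo. In MEST both orientations overlap.
PLAGL1, chr6:144008210-144008509, minus strand, also listed for HYMAI: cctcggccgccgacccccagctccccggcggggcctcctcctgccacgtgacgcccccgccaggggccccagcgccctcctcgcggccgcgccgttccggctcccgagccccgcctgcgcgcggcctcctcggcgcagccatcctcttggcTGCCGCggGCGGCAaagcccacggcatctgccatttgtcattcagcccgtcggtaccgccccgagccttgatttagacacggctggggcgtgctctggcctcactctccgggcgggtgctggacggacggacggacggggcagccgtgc
MEST, chr7:130491808-130492107, plus strand: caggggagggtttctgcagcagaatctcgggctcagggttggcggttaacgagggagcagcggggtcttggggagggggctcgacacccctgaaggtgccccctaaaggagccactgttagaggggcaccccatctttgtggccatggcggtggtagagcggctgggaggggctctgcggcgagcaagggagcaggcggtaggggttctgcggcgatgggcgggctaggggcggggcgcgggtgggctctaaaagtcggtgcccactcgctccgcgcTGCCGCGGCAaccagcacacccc
SNRPN, chr15:24954737-24955036, plus strand, also listed for SNURF: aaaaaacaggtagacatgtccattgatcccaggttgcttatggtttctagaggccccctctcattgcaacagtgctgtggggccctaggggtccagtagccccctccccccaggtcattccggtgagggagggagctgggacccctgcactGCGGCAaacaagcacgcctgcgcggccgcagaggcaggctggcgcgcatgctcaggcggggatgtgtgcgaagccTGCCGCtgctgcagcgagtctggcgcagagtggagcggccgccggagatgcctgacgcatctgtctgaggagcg
Each of these windows held 2 matches, and 10 of the 18 windows held at least 1, against 16.7% of 35116 windows of this length. Windows of MEST and of MEG3 overlap and share matches, so the same site is counted more than once. No excess of matches is therefore read from this count. The PLAGL1 window held 39 CG pairs, the MEST window 22 and the SNRPN window 18, against a median of 14 over all windows. Of all windows, 8.71%, 37.7% and 44.5% held at least as many, so those of MEST and SNRPN do not stand out. The other PLAGL1 windows held 2 to 31 CG pairs and the other SNRPN windows 2 to 11. The other 4 PLAGL1 windows, the window of H19 and some windows of MEST and SNRPN held no match, which says only that these letters are not in those windows. A count per gene does not show which start was used, and ZFP57 itself had 0 or 1 count in each group.

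In H460 siCont the order of the levels per kilobase of exon was SNRPN (19.1 ± 1.23 CPM per kb, mean ± SD, n = 3 throughout), MEST (5.82 ± 0.38), PEG10 (1.75 ± 0.04), PLAGL1 (0.728 ± 0.165), NNAT (0.633 ± 0.125), KCNQ1OT1 (0.137 ± 0.029) and SGCE (0.111 ± 0.072). In H1299 siCont it was PEG10 (16.9 ± 2.13 CPM per kb), SGCE (5.84 ± 0.44), PLAGL1 (0.638 ± 0.087), NNAT (0.321 ± 0.149), MEST (0.0899 ± 0.0248), KCNQ1OT1 (0.0228 ± 0.0048) and SNRPN (0.0209 ± 0.0223). The libraries of neighbours in this order overlapped for PLAGL1 and NNAT and for KCNQ1OT1 and SGCE in H460 siCont, and for KCNQ1OT1 and SNRPN in H1299 siCont. H460 thus carried SNRPN and MEST as its most abundant members, and H1299 carried PEG10 and SGCE. With siNGFR, PEG10 in H460 stood at 0.739 ± 0.124 CPM per kb, where its libraries overlapped those of NNAT (0.803 ± 0.358).

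**Figure D1:**
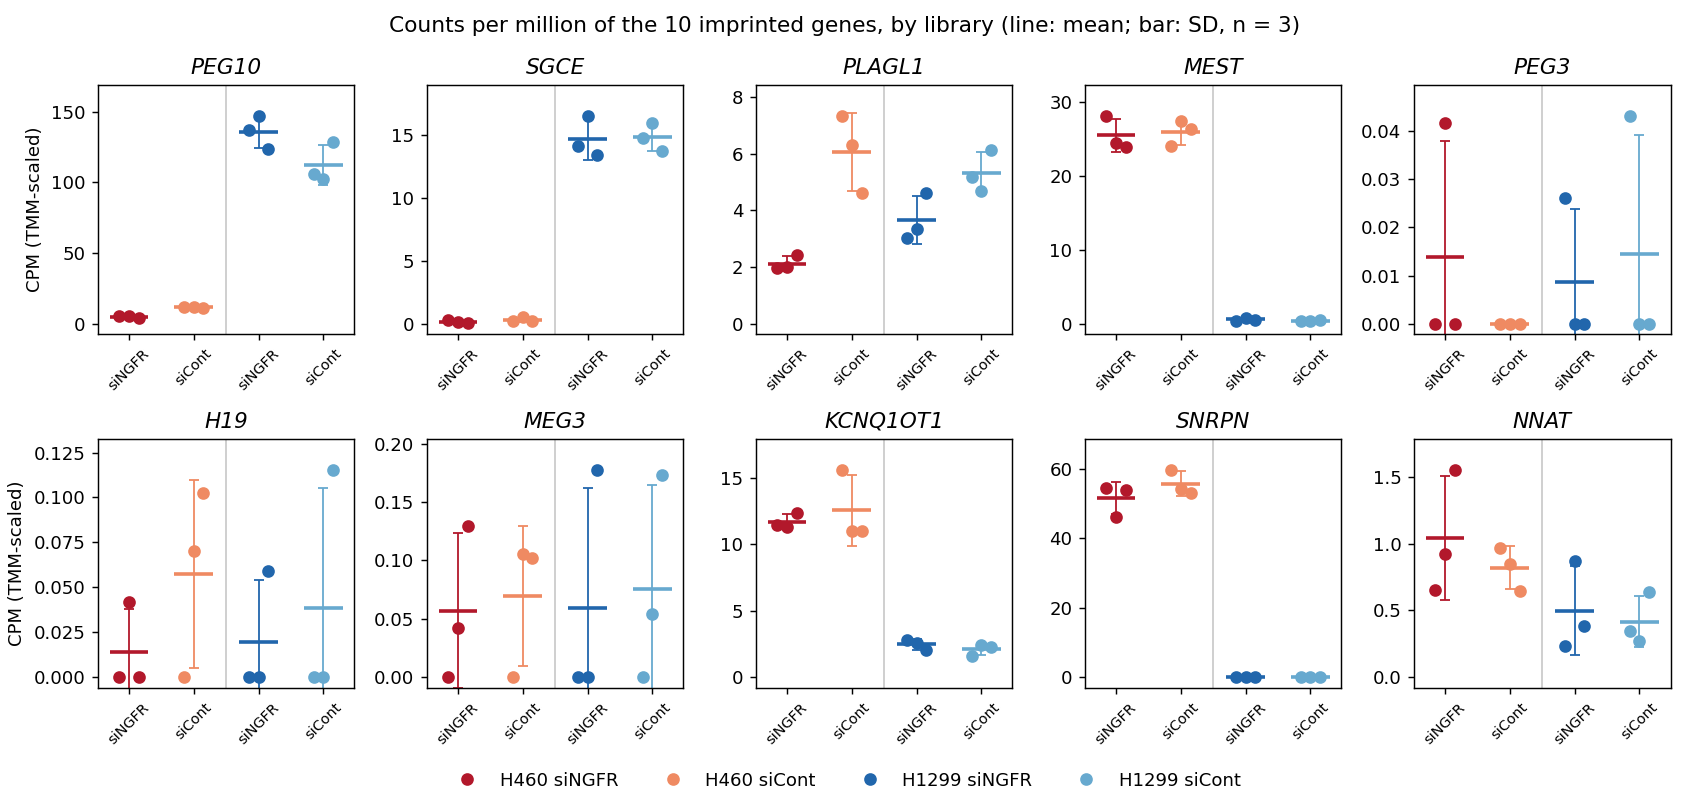
CPM (TMM-scaled, linear axis) of each of the 10 genes in the 3 libraries of H460 siNGFR, H460 siCont, H1299 siNGFR and H1299 siCont, with the mean as a line and the SD as a bar. PEG10 and SGCE are high in H1299, MEST, KCNQ1OT1 and SNRPN are high in H460, PLAGL1 is at a similar level in both siCont groups and lower with siNGFR in H460, and PEG3, H19 and MEG3 reach at most 0.178 CPM in a library.

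PEG10 is a retrotransposon-derived gene with Gag-like and Pol-like reading frames, kept in mammals and needed for the placenta in mice. Its counts in H460 were 114, 121 and 94 in the siNGFR libraries, against 256, 336 and 333 in the siCont libraries. This was 4.94 ± 0.83 CPM with siNGFR and 11.7 ± 0.26 CPM with siCont, and every siNGFR library was below every siCont library. The log2 fold change was -1.23 (standard error 0.14, edgeR), or 42.7% of the siCont level. In H1299, PEG10 had 5233, 2691 and 4175 counts with siNGFR and 2463, 1901 and 2232 counts with siCont. These were 136 ± 11.7 CPM with siNGFR and 113 ± 14.2 CPM with siCont, and the groups overlapped. The log2 fold change in H1299 was 0.27 (standard error 0.15) and 0.33 (standard error 0.13) without siNGFR replicate 3. The H460 response minus the H1299 response was -1.51 (standard error 0.20) on the log2 scale, and -1.65 (standard error 0.19) without that library. Across 12 alternatives of scaling, filter, tool, fit and left-out library, the log2 fold change of PEG10 in H460 ran from -1.55 to -1.10.

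SGCE encodes epsilon-sarcoglycan, a membrane protein whose loss on the paternal copy causes myoclonus-dystonia. H1299 had 539, 303 and 454 counts of it with siNGFR and 343, 297 and 239 counts with siCont, or 14.7 ± 1.63 CPM with siNGFR and 14.9 ± 1.12 CPM with siCont. The log2 fold change was -0.03 (standard error 0.13, edgeR adjusted p = 0.929) and 0.03 without siNGFR replicate 3, and 0.16 with library size as the only scaling, so its sign changes with these choices. In H460 it had 5, 3 and 2 counts with siNGFR and 4, 14 and 5 counts with siCont, too few to pass the filter on low counts. PEG10 and SGCE, which start within 248 bases of each other, were therefore both far higher in H1299 than in H460, and the lower PEG10 of H460 siNGFR had no readable counterpart in SGCE. Per kilobase of exon, PEG10 stood 3.39 to 3.70 times above SGCE in H1299 siNGFR and 2.44 to 3.56 times above it in H1299 siCont.

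Between the lines, PEG10 had 925 counts in H460 siCont and 6596 in H1299 siCont, a log2 fold change of -3.28 (standard error 0.13). SGCE had 23 counts in H460 siCont and 879 in H1299 siCont, a log2 fold change of -5.67 (standard error 0.26, edgeR adjusted p = 9.81e-11). SGCE passed the filter on low counts through H1299, so this direction was set by the filter and the p adds nothing to the counts. As a ratio of summed counts SGCE in H460 was 0.0195 of its level in H1299 (95% interval 0.0123 to 0.0294, counting error only). Of 13 genes beside them on 7q21, 9 were tested between the lines, 4 higher and 3 lower in H460, with 63.2% of 20105 genes called in this comparison. Of the higher ones, ASB4, PDK4 and GNGT1 had 1, 4 and 18 counts in H1299 siCont. They passed the filter on low counts through H460, so their direction was set by the filter. PPP1R9A, the next gene beyond PEG10, which encodes neurabin and is imprinted in some tissues, followed the same direction with 1.5 ± 0.15 CPM in H460 siCont and 6.57 ± 0.54 CPM in H1299 siCont (log2 fold change -2.13 with a standard error of 0.19, adjusted p = 1.58e-07). CASD1, the neighbour of SGCE on its other side, had 1.27 CPM in H460 siCont and 1.51 CPM in H1299 siCont (log2 fold change -0.26, adjusted p = 0.432). TFPI2, a protease inhibitor gene, went the other way, with 26.1 CPM in H460 siCont and 10.7 CPM in H1299 siCont (log2 fold change 1.28, adjusted p = 6.07e-07). BET1 (log2 fold change -1.08, adjusted p = 0.000124) and PON2 (-0.52, adjusted p = 0.00253) were lower in H460, but PON2 did not pass with library size as the only scaling (-0.26, adjusted p = 0.195). With siNGFR, 0 of 9 tested neighbours were called in H460 by edgeR and 0 by DESeq2 (2 at an unadjusted p under 0.05), and in H1299 0 of 6 by either tool (3 at an unadjusted p under 0.05). Without H1299 siNGFR replicate 3, 2 of the 6 neighbours were called higher and 2 lower in H1299, where 27.9% of all genes were called.

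**Figure D2:**
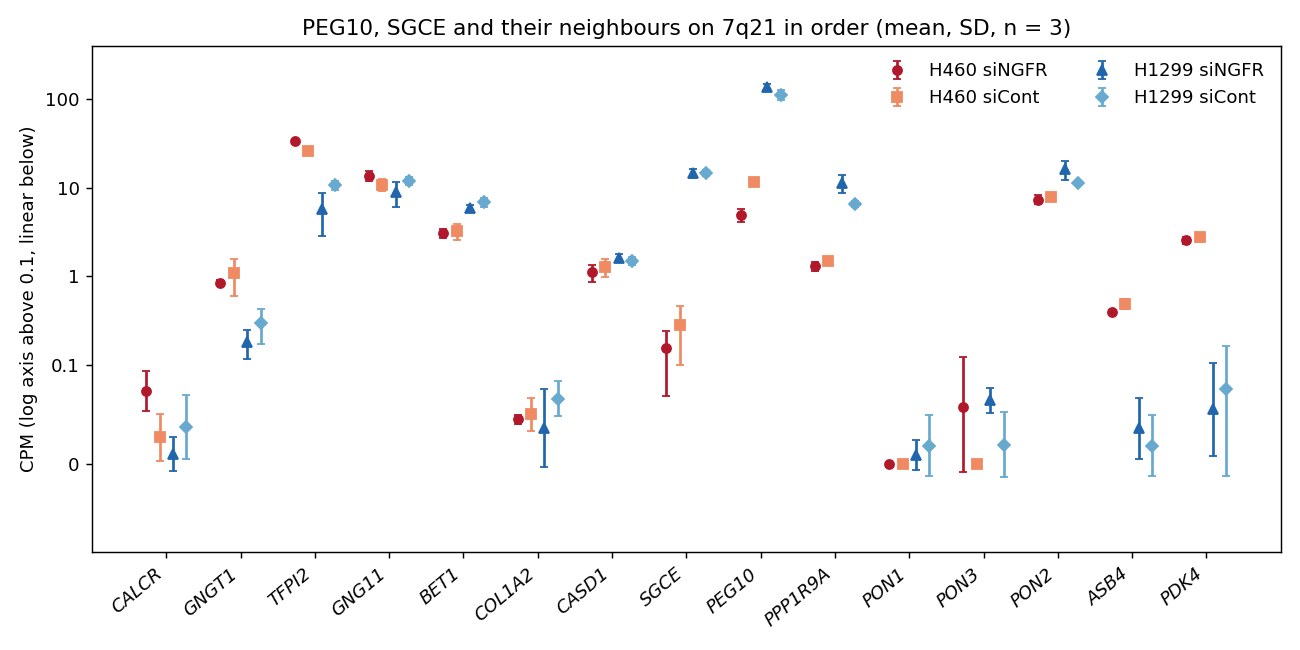
Mean CPM with SD (n = 3) of PEG10, SGCE and 13 neighbouring genes in their order on chromosome 7, in the 4 groups, on an axis that is logarithmic above 0.1 CPM and linear below. SGCE, PEG10 and PPP1R9A lie higher in both H1299 groups than in both H460 groups, CASD1 beside them does not separate the lines, and PEG10 in H460 is lower with siNGFR (4.94 CPM) than with siCont (11.7 CPM).

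PLAGL1, also called ZAC1, encodes a zinc finger transcription factor that can stop cell division and whose overexpression causes transient neonatal diabetes. In H460 it had 39, 48 and 56 counts with siNGFR and 159, 179 and 135 counts with siCont, or 2.12 ± 0.26 CPM with siNGFR and 6.08 ± 1.38 CPM with siCont. No siNGFR library reached the lowest siCont library, and the log2 fold change was -1.49 (standard error 0.20), or 35.7% of the siCont level. In H1299 it had 116, 61 and 156 counts with siNGFR and 120, 87 and 106 counts with siCont. Scaled for depth these were 3.04, 3.33 and 4.62 CPM with siNGFR against 5.18, 4.69 and 6.12 CPM with siCont. The groups did not overlap, although siNGFR replicate 3, at 4.62 CPM, lay just below the lowest siCont library, at 4.69 CPM. The share of all genes whose groups separate in this way was not counted. Nothing is therefore read from this separation, or from those of PEG10 and PLAGL1 in H460. The log2 fold change in H1299 was -0.54 (standard error 0.21), and -0.75 (standard error 0.20) without siNGFR replicate 3. The difference of the responses, H460 minus H1299, was -0.97 (standard error 0.31). Between the siCont groups the log2 fold change was 0.18 (standard error 0.19), with 6.08 CPM in H460 siCont and 5.33 CPM in H1299 siCont, the smallest line difference of the 7 tested members. HYMAI, the noncoding gene that shares the PLAGL1 start window printed above, had 2 counts in H460 siNGFR, 3 in H460 siCont, 3 in H1299 siNGFR and 3 in H1299 siCont.

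Among 8 genes of the PLAG family or linked to PLAGL1, 6 were tested in H460. With siNGFR 1 of them was higher and 0 lower, where 4.32% of all genes were called. The call was CDKN1A, the p21 inhibitor of cyclin-dependent kinases, with 96.3 ± 12.2 CPM with siNGFR and 38.0 ± 2.80 CPM with siCont (log2 fold change 1.36 with a standard error of 0.12, edgeR adjusted p = 0.000205). The paper reports higher p21 protein and mRNA after NGFR knockdown in H460 and names p21 a target gene of p53. A link of CDKN1A to PLAGL1 in these cells was not tested. In H1299 CDKN1A averaged 9.69 ± 4.19 CPM with siNGFR and 20.3 ± 0.77 CPM with siCont, and its response in H460 exceeded that in H1299 by 2.40 in log2 units (standard error of 0.30 and adjusted p = 0.00468). In H1299 0 of 5 tested genes of the list were called by edgeR and 1 by DESeq2 (1 at an unadjusted p under 0.05). PLAGL2, the closest relative of PLAGL1, averaged 7.12 CPM in H460 siNGFR and 10.2 CPM in H460 siCont (log2 fold change -0.49, adjusted p = 0.0972). Between the lines SOCS3 (log2 fold change 1.86, adjusted p = 2.75e-09) and CDKN1A (0.90) were higher and TCF4 (-0.87) lower in H460.

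Of the 10 members, 6 passed the filter on low counts in H460. PEG10 and PLAGL1 were the 2 called lower there with siNGFR and 0 were called higher, in a comparison where 4.32% of 19837 genes were called, and since that contrast chose those genes nothing is read from the count. In H1299 4 members were tested and 0 were called by edgeR or DESeq2 (1 at an unadjusted p under 0.05), where 0.0211% of 18925 genes were called. Without H1299 siNGFR replicate 3, 1 of 5 tested members, PLAGL1, was called lower, where 27.9% of 19434 genes were called in either direction. For the difference of the responses 7 members were tested and 1, PEG10, was called lower, where 0.426% of 21583 genes were called, and since the difference holds the H460 contrast on which PEG10 was chosen, nothing is read from this count either. The other members of H460 did not pass the threshold. MEST had 25.5 ± 2.26 CPM with siNGFR and 25.9 ± 1.70 CPM with siCont (log2 fold change -0.01 with a standard error of 0.11, edgeR adjusted p = 0.976). KCNQ1OT1 had 11.7 ± 0.55 CPM with siNGFR and 12.5 ± 2.65 CPM with siCont (-0.08, standard error 0.14, adjusted p = 0.826). SNRPN had 51.5 ± 4.65 CPM with siNGFR and 55.6 ± 3.58 CPM with siCont (-0.09, standard error 0.11, adjusted p = 0.707). With library size as the only scaling, where the median of all genes shifted to -0.32, SNRPN was called lower at -0.42 (adjusted p = 0.0461). NNAT had 13, 22 and 36 counts with siNGFR and 21, 24 and 19 with siCont (0.38, standard error 0.35, adjusted p = 0.616). In H1299 KCNQ1OT1 had 108, 47 and 69 counts with siNGFR and 37, 45 and 39 with siCont (0.25, standard error 0.25, adjusted p = 0.588), and MEST, NNAT and SNRPN did not pass the filter there. The siNGFR libraries of H460 also had the larger share of short RNAs and the lower summed level of leukocyte markers. The sum of 8 fibroblast and endothelial markers was lower too (3.75 to 4.18 CPM in H460 siNGFR and 4.40 to 5.21 CPM in H460 siCont). That sum came mostly from PDGFRB, at 3.21 CPM in H460 siNGFR and 3.94 CPM in H460 siCont. The part of these differences in the lower PEG10 and PLAGL1 was not tested.

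**Figure D3:**
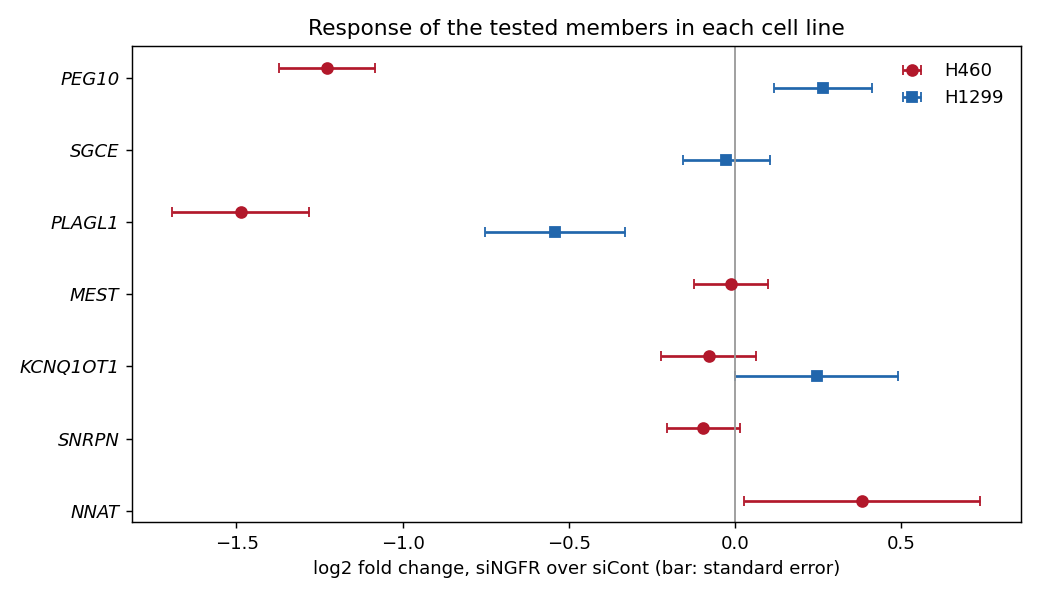
Log2 fold change of siNGFR over siCont with its standard error for the members that passed the filter on low counts in H460 (circles, 6 genes) and in H1299 (squares, 4 genes). PEG10 lies at -1.23 in H460 and 0.27 in H1299, PLAGL1 at -1.49 in H460 and -0.54 in H1299, and the standard error bars of the other genes reach or nearly reach 0.

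Between the siCont groups 7 members were tested, 4 higher and 2 lower in H460 than in H1299, where 63.2% of all genes were called. Of these, SNRPN, MEST and NNAT passed the filter on low counts through H460 and SGCE through H1299. Their direction was therefore set by the filter. MEST, which encodes a protein of the hydrolase fold expressed in mesoderm, had 520, 776 and 770 counts in H460 siCont and 7, 7 and 9 counts in H1299 siCont. The log2 fold change was 6.02 (standard error 0.19, edgeR adjusted p = 2.26e-12), and the siNGFR groups stood apart in the same way, with 561, 584 and 554 counts in H460 and 14, 15 and 17 in H1299. COPG2, which overlaps the end of MEST on the opposite strand, had 10.2 CPM in H460 siCont and 9.96 CPM in H1299 siCont (log2 fold change 0.01, adjusted p = 0.96). KCNQ1OT1, a long noncoding RNA that silences its neighbours on the paternal copy, had 338, 313 and 322 counts in H460 siCont and 37, 45 and 39 in H1299 siCont (log2 fold change 2.58 with a standard error of 0.20, adjusted p = 4.97e-08). Of the genes around it, KCNQ1 and CDKN1C stayed at or under 0.2 CPM in each group mean. PHLDA2 had 103 counts in H460 siCont and 219 in H1299 siCont (log2 fold change -1.54, adjusted p = 7.82e-05), and SLC22A18 had 390 counts in H460 siCont and 346 in H1299 siCont (-0.29, adjusted p = 0.186). NNAT, which encodes the proteolipid neuronatin, had 21, 24 and 19 counts in H460 siCont and 8, 5 and 11 counts in H1299 siCont (log2 fold change 0.97 with a standard error of 0.40, adjusted p = 0.0458). That call was lost without H460 siCont replicate 4 (adjusted p = 0.117) or 5 (0.106) and without H1299 siCont replicate 1 (0.161) or 2 (0.184).

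SNRPN encodes SmN, a spliceosome protein, and its start region is the imprinting center of the Prader-Willi region on 15q11. It had 1295, 1536 and 1557 counts in H460 siCont and 3, 1 and 0 counts in H1299 siCont, and 1089, 1105 and 1251 counts in H460 siNGFR and 0, 0 and 0 counts in H1299 siNGFR. The lines did not overlap. The log2 fold change between the siCont groups was 9.56 (standard error 0.26, edgeR adjusted p = 5.71e-13), and from the summed counts H460 stood 816-fold higher (95% interval 318 to 2995, counting error only). SNRPN passed the filter on low counts through H460, so the direction of this test was set by the filter and its p adds nothing to the counts. Between the siNGFR groups SNRPN was at least 1544-fold higher in H460, taken against a floor of 3 counts over the H1299 group, and the lower end of the two-sided 95% counting interval was 1255-fold.

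Of the genes around SNRPN, SNURF, SNHG14, NDN and the SNORD116 rows were split between the lines in the same way, whereas MKRN3 was not. Of 119 genes of the table between MKRN3 and UBE3A, 40 were tested, 36 higher and 2 lower in H460, where 63.2% of all genes were called. Of these, 27 of the tested and higher genes were the SNORD116 rows described below. Among the 13 other tested genes 9 were higher and 2 lower, the lower ones being MKRN3 and the pseudogene RPL5P1. The 9 include SNRPN itself and both listings of SNURF, and all but SNHG14 had at most 4 counts in H1299 siCont. Like the SNORD116 rows, these passed the filter on low counts through H460, and MKRN3 passed through H1299, so their directions were set in advance. SNURF, which shares the SNRPN start window, had 2541 counts in H460 siCont and 1 in H1299 siCont. The table lists it a second time under another identifier, and reads shared by SNURF and SNRPN may have been counted for either. SNHG14, the long host transcript of the snoRNAs, had 40.4 CPM in H460 siCont and 0.981 CPM in H1299 siCont (log2 fold change 5.33 with a standard error of 0.21, adjusted p = 1.97e-11). NDN, the gene of necdin, had 75 counts in H460 siCont and 0 in H1299 siCont, at least 18.6-fold higher in H460 against the same floor over the group (lower end of the two-sided 95% interval 14.7-fold). MKRN3, the outermost gene of the group, ran the other way with 4 counts in H460 siCont and 136 in H1299 siCont (log2 fold change -5.37 with a standard error of 0.57, adjusted p = 1.22e-06), and MAGEL2 had 9 counts in H460 siCont and 3 in H1299 siCont. UBE3A, the ubiquitin ligase of Angelman syndrome, which is imprinted in neurons only, had 23.8 CPM in H460 siCont and 20.9 CPM in H1299 siCont (log2 fold change 0.18 with a standard error of 0.11, adjusted p = 0.188).

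SNORD116 is a cluster of box C/D snoRNAs cut from the introns of SNHG14, and loss of this cluster is tied to Prader-Willi syndrome. Its 31 rows in the table, 30 annotated as snoRNA and SNORD116-20 annotated as a lincRNA, summed to 2079 to 4671 counts per library in H460 siCont and 0 to 2 in H1299 siCont, so from 9850 and 3 counts in all H460 stood 2441-fold higher (95% interval 835 to 11840, counting error only). All 27 rows that could be tested between the lines were called higher in H460, with log2 fold changes from 5.90 to 11.26. With 3 counts over all rows in H1299 siCont, they passed the filter on low counts through H460 alone. Their direction was therefore fixed in advance and adds nothing to the summed counts. The row SNORD116-20 spans 1236 bases that contain 2 of the snoRNA rows, so it is no single copy and reads there may have been counted for either. It had 1282 counts in H460 siCont, and the 30 snoRNA rows alone had 8568 counts in H460 siCont and 1 in H1299 siCont. The snoRNA rows with the most counts were SNORD116-3 and SNORD116-9, with 1079 and 1027 in H460 siCont. They have 95 bases each, and their annotated sequences are identical, so their reads cannot be told apart. The sequence of SNORD116-3 in GENCODE, on the plus strand of chromosome 15, is shown with the C box (TGATGA) and the D box (CTGA) in capitals.
SNORD116-3, chr15:25056860-25056954: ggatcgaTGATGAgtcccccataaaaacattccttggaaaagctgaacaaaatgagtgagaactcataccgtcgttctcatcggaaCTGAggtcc
Of the 31 rows, 29 held the C box letters, and they came in 28 distinct sequences. In H460 the rows summed to 88.5 to 96.2 CPM with siNGFR and 95.9 to 159 CPM with siCont. Of 28 rows tested, 0 were called with siNGFR by edgeR or DESeq2 (10 at an unadjusted p under 0.05), with a median log2 fold change of -0.44 against 0.01 for all genes. With library size as the only scaling 15 rows were called lower, and with no filter on low counts 8. SNORD115, the neighbouring snoRNA cluster, had 31 counts over 49 rows in H460 siNGFR and 4 in H460 siCont, and 0 in H1299 siNGFR and 1 in H1299 siCont.

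**Figure D4:**
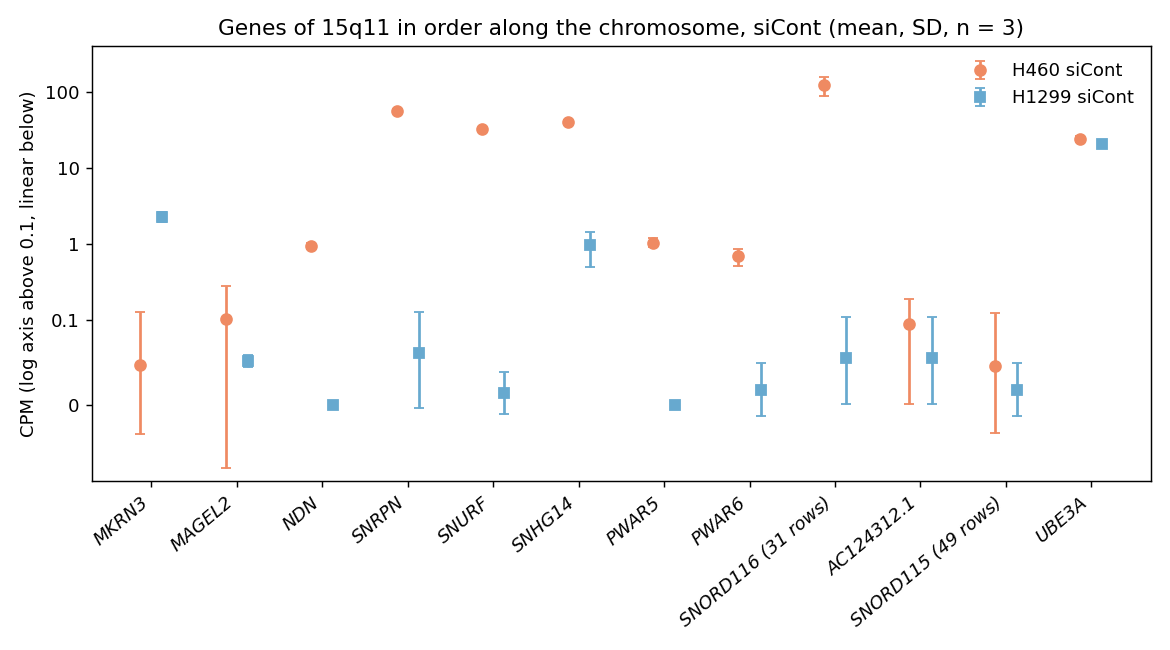
Mean CPM with SD (n = 3) of genes of 15q11 in their order along the chromosome in H460 siCont (circles) and H1299 siCont (squares), with the SNORD116 and SNORD115 rows summed, on an axis that is logarithmic above 0.1 CPM and linear below. From NDN through SNRPN to SNORD116 the H460 values lie far above those of H1299, MKRN3 lies higher in H1299, and UBE3A is near 20 CPM in both.

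PEG3, a zinc finger gene, had 1 count in H460 siNGFR, 0 in H460 siCont, 1 in H1299 siNGFR and 1 in H1299 siCont. H19 and MEG3, maternally expressed long noncoding RNAs, had at most 5 and 6 counts in a group. The upper limits of the 95% exact Poisson interval of each group, which cover counting error only, were at most 0.174 CPM for these 3 genes, and differences between groups were not detectable at this depth. Of the genes that share their clusters, IGF2 beside H19 had 29 counts in H460 siCont, its highest group (0.368 CPM). DLK1 and RTL1 beside MEG3 (at most 0.0324 and 0.0311 CPM) and ZIM2 beside PEG3 (at most 0.0863 CPM) were as low as these 3.

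Of 50 other imprinted genes, 48 were in the table and 27 were tested in H460. With siNGFR 1 was higher and 0 lower, where 4.32% of all genes were called. The median log2 fold change was -0.02 against 0.01 for all genes. The call was CPA4, a carboxypeptidase gene near MEST, with 7.70 ± 1.21 CPM with siNGFR and 3.99 ± 0.96 CPM with siCont (log2 fold change 0.97 with a standard error of 0.19, edgeR adjusted p = 0.013). It was lost without siNGFR replicate 5 (adjusted p = 0.0502), without siCont replicate 5 (0.0772) and in one fit of all 12 libraries (0.0592). In H1299 0 of 23 were called by edgeR or DESeq2 (5 at an unadjusted p under 0.05), and without siNGFR replicate 3 there were 3 higher and 4 lower, where 27.9% of all genes were called. Between the lines 15 of 29 were higher and 6 lower in H460, where 63.2% of all genes were called. Some of the 29 passed the filter on low counts through 1 line, so their direction was set by the filter. Examples are GRB10 (2 counts in H1299 siCont) and NLRP2 (6 counts in H460 siCont). The 29 also include genes of 15q11 already counted above, such as SNURF and NDN, so nothing is read from this count. Besides SNURF and SNHG14, the smallest adjusted p belonged to FAM50B (1.5 CPM in H460 siCont and 17.9 CPM in H1299 siCont, log2 fold change -3.58, adjusted p = 4.18e-11) and OSBPL5 (17.5 CPM in H460 siCont and 0.95 CPM in H1299 siCont, log2 fold change 4.21, adjusted p = 5.99e-11).

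Of 19 genes that keep or erase imprints, 17 were tested in H460, where 4.32% of all genes were called with siNGFR. With siNGFR 1 was higher, DNMT3A, a DNA methyltransferase, with 7.96 CPM with siNGFR and 5.38 CPM with siCont (log2 fold change 0.58 with a standard error of 0.15, edgeR adjusted p = 0.0428). That call was lost without siNGFR replicate 5 or 6 and without siCont replicate 4, 5 or 6 (adjusted p = 0.0508 to 0.206), and with library size as the only scaling (0.25, adjusted p = 0.295). DNMT1, which copies methylation at each division, had 71.9 CPM with siNGFR and 69.6 CPM with siCont in H460. Between the lines 3 of 17 were higher in H460 and 6 were lower, where 63.2% of all genes were called. Among the lower were DNMT3A (log2 fold change -2.06, adjusted p = 2.41e-09) and KDM1B, a histone demethylase needed to set imprints in mouse oocytes (-1.82, adjusted p = 1.91e-07). CTCF, which insulates the H19 region (0.97, adjusted p = 5.02e-06), and TRIM28, the partner of ZFP57 (0.99, adjusted p = 6.85e-06), were higher in H460.

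Among 15 retrotransposon-derived Gag genes, relatives of PEG10 by origin, 11 were tested in H460. With siNGFR 0 were higher and 2 lower, where 4.32% of all genes were called. PNMA1 had 52.5 CPM with siNGFR and 78.2 CPM with siCont (log2 fold change -0.56, edgeR adjusted p = 0.0244), and RTL8C had 19.5 CPM with siNGFR and 29.5 CPM with siCont (-0.58, adjusted p = 0.0436). The call of PNMA1 was lost without siNGFR replicate 5 or 6 or siCont replicate 4 or 5 (adjusted p = 0.0631 to 0.143), and that of RTL8C without siNGFR replicate 5 or siCont replicate 4, 5 or 6 (0.0627 to 0.17). In one fit of all 12 libraries both were lost (adjusted p = 0.0815 for PNMA1 and 0.115 for RTL8C). RTL8A, RTL8B and RTL8C are near-identical copies, so the split of reads between them is uncertain. In H1299 0 of 9 were called by edgeR or DESeq2 (2 at an unadjusted p under 0.05). Between the lines RTL6 (log2 fold change 3.33), LDOC1 (7.94) and PNMA1 (1.59) were higher and RTL8B (-2.99) lower in H460. LDOC1, with 2 counts in H1299 siCont, passed the filter on low counts through H460, so its direction was set by the filter. Of 13 genes of the sarcoglycan and dystrophin complex, to which SGCE belongs, 8 were tested in H460 and 0 were called with siNGFR by edgeR or DESeq2 (0 at an unadjusted p under 0.05). Between the lines DMD, the dystrophin gene, had 8.30 CPM in H460 siCont and 0.0901 CPM in H1299 siCont (log2 fold change 6.52 with a standard error of 0.32, adjusted p = 2.78e-10). With 5 counts in H1299 siCont, DMD passed the filter on low counts through H460, and SGCE passed it through H1299. Their opposite directions were therefore set by the filter, and nothing is read from them. DAG1 (1.01) and SGCB (1.17) were higher and UTRN (-0.90) lower in H460.

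Over the 12 libraries the genes whose log2 CPM was most like that of PEG10, among 13760 genes with at least 50 counts on average, were NCAPD2, KIF24, FGFR1, ADAM22 and C2CD5 (Pearson r = 0.995 to 0.996). For PLAGL1 they were ASF1B (r = 0.96), SNX12, H1FX, RANBP1 and FGFRL1 (r = 0.932 to 0.953). The libraries share cell line and siRNA, so these values are a description. With log2 CPM centred within each line, none of the 5 genes named for PEG10 stayed among its closest 5, which were then CCNI, UBE2R2, CTNNB1, NAA40 and PDZD11 (r = 0.974 to 0.978), whereas ASF1B, a histone chaperone gene, remained the closest for PLAGL1 (r = 0.971).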

How the data were processed

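The authors deposited whole-number counts of reads for 64253 genes in each of 12 libraries, aligned to hg38. The submitters' processing notes name STAR and Bowtie2 without versions, and no source used here gives the counting tool, strand setting or annotation release. A further 24 columns of per-sample values and the authors' own EBSeq comparisons, which hold fold changes and probabilities, were not used. The exon length listed per gene set the values per kilobase.

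Counts were analysed in R 4.3.3 with edgeR 4.0.16 (filterByExpr, TMM, two-sided quasi-likelihood test, Benjamini-Hochberg over all genes tested, threshold 0.05), within each line, between the siCont groups, and as a difference of responses over 12 libraries. Standard errors came from the F statistic. The test was checked on simulated counts. Alternatives were DESeq2 1.42.0, library-size scaling, other filters, one fit of 12 libraries, the replicate number as a block, and each library left out. H460 columns carry the numbers 4, 5 and 6, used here as replicate names, and map to a group but not to a sample. The samples are called biological replicates, with nothing more on their independence, so p-values measure the spread between these samples. Replicates differed by more than the sampling noise (19.3 to 183 chi-square units for each degree of freedom), so none was counted as a duplicate. The replicate numbers did not pair the samples.

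The members and the 10 other gene lists were chosen with earlier results of these data known. Named were all members, up to 4 genes per list and comparison with the smallest adjusted p under 0.05 and a mean of at least 50 counts, the 5 genes most like PEG10 and PLAGL1 on log2(CPM + 0.5), and genes of the members' own clusters, the last chosen after their values were seen. Gene coordinates came from GENCODE, and promoters from RefSeq. A gene whose values are withheld is not reported here.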

Additional observations from a re-analysis of the deposited data

Results flagged for a closer look

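The response of PEG10 to siNGFR, H460 minus H1299, had a difference of -1.51 on the log2 scale (standard error 0.20) in the fit of all 12 libraries. H460 had 4.94 ± 0.83 CPM with siNGFR and 11.7 ± 0.26 CPM with siCont, and H1299 had 136 ± 11.7 CPM with siNGFR and 113 ± 14.2 CPM with siCont (SD, n = 3). PEG10 was chosen on the H460 part of this difference, so the value is a description. For the same reason no support is read from the H460 libraries, where PEG10 was lower in 3 of 3 siNGFR libraries than in any siCont library. Nor is any read from leaving out each of the 12 libraries, which gave differences from -1.69 to -1.45.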

How the results depend on the processing

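Of the members, 0 to 1 were called in H1299 when each library was left out, the 1 being PLAGL1 without siNGFR replicate 3. For the difference of responses 2 members were called with library size as the only scaling and 2 with no filter on low counts (PEG10 and PLAGL1), and between the lines 2 with at least 10 counts in every library, since only 3 members were then tested. With 1 library left out, the log2 fold change in H460 ran from -0.0693 to 0.0386 for MEST, from -0.165 to 0.092 for KCNQ1OT1 and from -0.0163 to 0.633 for NNAT. That of SGCE in H1299 ran from -0.113 to 0.0319, and it was 0.16 with library size as the only scaling and 0.0149 with no filter. The difference of responses of NNAT ran from -0.24 to 0.77 and was -0.27 with library size as the only scaling. That scaling moved the median of all genes to -0.32 in H460, 0.18 in H1299, -0.50 for the difference and 0.25 between the lines, and called 155 genes higher and 4215 lower in H460 (360 and 496 with TMM) and 8056 higher and 4501 lower between the lines (6417 and 6294 with TMM). Over all genes, the 856 calls in H460 became 4370 with library size, 1482 with no filter, 560 with the replicate block, 461 in one fit and 211 to 1558 with 1 library left out. The 4 calls in H1299 became 25, 1904, 0, 108 and 0 to 5425 in the same order, and 163 with DESeq2. The 92 calls for the difference became 3042 with library size, 1394 with no filter, 50 with the block, 467 with DESeq2 and 12 to 3955 with 1 library left out. The replicate numbers only name the samples (correlation of same-numbered deviations -0.20 to 0.31), and under the replicate block 2 members were called in H460, 0 in H1299 and 1 for the difference, as without it, while the H460 calls of DNMT3A, PNMA1 and RTL8C were lost (edgeR adjusted p = 0.0729, 0.0501 and 0.0805). The causes of these changes were not tested. NGFR and members at 0 to 6 counts per group are limited by depth.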
